A study of Solanum lycopersicum and Arabidopsis thaliana and Cannabis sativa with 28 samples.

Results

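A set of 2382 H3K4me3 domains was examined in seedlings of the tomato variety Micro-Tom. None of them shared a base with any H3K9ac domain listed as higher after 2 h of jasmonic acid (JA). They were taken from the 18758 listed tomato H3K4me3 domains, of which they made up 12.7% (Wilson interval 12.2-13.2%). Each held at least 1.2 times as many H3K4me3 as IgG reads, had an end minus start under 3999 bp, and had its midpoint in a 1 Mb bin with at least 10 listed H3K4me3 domains. The domains were chosen by measured values, namely the read ratio of H3K4me3 to IgG, the width, the number of domains in the bin and the overlap with the H3K9ac table, and their values, like the reads per kb of the same libraries, are given as a description of the set with no test. The deposited tables of the series list 52544 domains in all.

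Micro-Tom is a dwarf tomato, and whole seedlings at an age of 2 weeks were profiled by PHILO ChIP-seq, a low-input protocol for many samples in parallel. H3K4me3 and IgG were measured in untreated seedlings, and H3K9ac in seedlings exposed to gaseous JA for 2 h and in untreated ctrl seedlings, with 3 libraries in each of these 4 groups. The titles place the 2 h JA libraries in the treated group, whereas the treatment field of their labels reads none, and the study's list of libraries gives the treatment of the third replicate of the JA and ctrl groups the other way round. The replicates of a group were merged before domains were called, so that every count is a single pooled value, no spread between replicates can be computed, and no comparison between conditions was tested. Whole seedlings mix many cell types, and fewer cells with a mark and less of the mark per cell cannot be told apart.

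H3K4me3 is the trimethylation of lysine 4 of histone H3, set by COMPASS-type methyltransferases and found around the transcription start of active genes. H3K9ac, the acetylation of lysine 9 of the same histone, is set by acetyltransferases such as GCN5 and usually lies over the same promoters. Tomato chromosomes have gene-rich arms and long gene-poor interiors around the centromere, and JA is a hormone of the response to wounding and herbivores.

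The H3K9ac table does not list all acetylated regions. It compares the merged 2 h JA library with the merged ctrl library, and the lowest of its 17455 log2 fold changes was 0.05. A region with much H3K9ac but no positive fold change by the caller would not be in it. These fold changes are not ratios of raw reads. In raw reads, the ratio of 2 h JA to ctrl had a lower quartile of 1 over the listed domains. Regions equal or lower after JA in raw reads were thus also listed. A domain without listed H3K9ac is therefore a domain without a listed gain, and its level of H3K9ac was not analysed here. The set also depends on how long that list is: counting only H3K9ac domains with an FDR of at most 0.001 gave 5322 domains in place of 2382. A second count with bedtools found 0 of the 2382 domains sharing a base with the H3K9ac table.

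Of the 18758 listed H3K4me3 domains, 3114 (16.6%, interval 16.1-17.1%) shared no base with listed H3K9ac. Of these, 378 fell short of the read ratio, 164 were too wide and 350 lay in bins with fewer domains. A total of 732 were left out by at least 1 of these limits, among them 148 by more than 1. For comparison, 13144 H3K4me3 domains met the same limits on ratio, width and bin and shared bases with listed H3K9ac, and these are called H3K9ac-overlapping domains. The domains without listed H3K9ac were 15.3% (interval 14.8-15.9%) of the 15526 domains within the limits. Intervals of shares are 95% Wilson intervals over domains, which are not replicates.

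The 2382 domains covered 3.97 Mb, and their pooled reads summed to 443140 for H3K4me3 and 76580 for IgG. The 13144 H3K9ac-overlapping domains covered 24.5 Mb, with 3728406 H3K4me3 and 470415 IgG reads. Summed over domains, this gave 5.79 H3K4me3 reads per IgG read without listed H3K9ac and 7.93 in H3K9ac-overlapping domains. All 2382 domains reached a log2 fold change of 1 as the authors' table gives it, against 96.8% of all listed domains. Nothing is read from this count, because the limit of 1.2 on the read ratio corresponds to about the same fold change. After division by the ratio of uniquely aligned reads (1.59), 1696 domains without listed H3K9ac (71.2%) and 11530 H3K9ac-overlapping domains (87.7%) had at least 2 H3K4me3 reads per IgG read, against 82.2% of all listed domains. The same contrast chose the domains, and these shares are given as a description.

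H3K4me3 over IgG was lower without listed H3K9ac. The read ratio ranged from 1.22 to 55 in these domains, with a median of 5.26 (binomial interval of the median 5.04-5.54) and quartiles of 2.82 and 8.75. In H3K9ac-overlapping domains it ranged from 1.2 to 45, with a median of 8.37 (interval 8.28-8.47) and quartiles of 5.40 and 11.5. On the log2 scale, the medians differed, with -0.67 as the difference of 2.395 and 3.066. The difference was -0.33 when only H3K9ac domains with an FDR of at most 0.001 counted, and -0.39 among domains with at least 100 reads in both libraries together. The ranges overlapped nearly in full. Of the domains without listed H3K9ac, 664 (27.9%, interval 26.1-29.7%) lay above the median ratio of the H3K9ac-overlapping domains. Both sets passed the same limits, and the difference was not tested, since a single pooled library stands behind each mark.

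Weak domains made up a larger share without listed H3K9ac. Ratios under 2 were found in 321 of the 2382 domains (13.5%, interval 12.2-14.9%) and in 679 of the 13144 H3K9ac-overlapping domains (5.17%, interval 4.80-5.56%). Ratios under 4 were found in 38.4% (interval 36.4-40.3%) and 16.9% (interval 16.2-17.5%) of these sets. Strong domains were present in both. A ratio of 16 or more was reached by 90 domains without listed H3K9ac (3.78%) and by 934 H3K9ac-overlapping domains (7.11%). The histogram of ratios rose to a higher mode in H3K9ac-overlapping domains and was broader without listed H3K9ac. Its highest class was the same in both sets, 3 to 3.25 on the log2 scale.

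**Figure D1:**
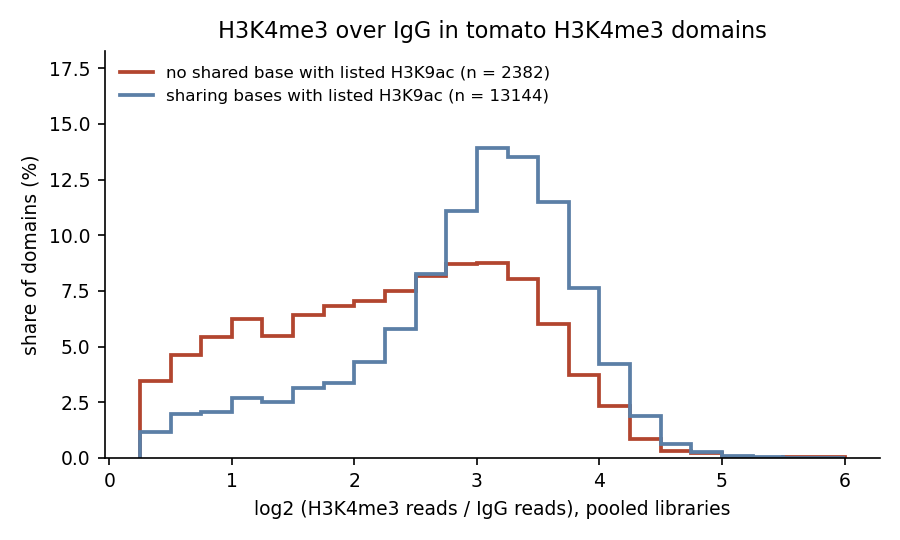
Share of domains (y axis, %) by the log2 ratio of pooled H3K4me3 to IgG reads (x axis, steps of 0.25) for the 2382 domains sharing no base with listed H3K9ac and the 13144 domains sharing bases with it. Both sets are highest in the class from 3 to 3.25, with 8.73% and 13.9% of domains. The first set spreads broadly around a median of 2.395, with a larger share at low ratios. The second is highest in the classes from 3 to 3.5, with 13.9% and 13.5%, and nearly as high beside them, with 11.1% and 11.5%.

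IgG reads were alike in both sets. The median was 19 IgG reads per kb of domain in each, with quartiles of 15.9 and 22.3 without listed H3K9ac and of 16.4 and 21.7 in H3K9ac-overlapping domains. The H3K4me3 reads differed instead, with a median of 97 reads per kb (quartiles 55 and 157) without listed H3K9ac and 159 reads per kb (quartiles 103 and 211) in H3K9ac-overlapping domains. Of the domains without listed H3K9ac, 53.1% (interval 51.1-55.1%) lay under the lower quartile of the H3K9ac-overlapping domains, and 24.4% (interval 22.7-26.2%) lay above their median. A median domain without listed H3K9ac held 154 H3K4me3 and 29 IgG reads, and a median H3K9ac-overlapping domain 290 H3K4me3 and 33 IgG reads.

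Read the other way, the share of domains without listed H3K9ac fell with H3K4me3 read density. At under 50 H3K4me3 reads per kb, 498 of 1616 domains within the limits (30.8%, interval 28.6-33.1%) had no listed H3K9ac. The share was 26.4% (interval 24.8-28.1%) at 50 to under 100 reads per kb, 15.1% (interval 13.9-16.3%) at 100 to under 150, and 10.0% (interval 9.10-11.1%) at 150 to under 200. It was 7.49% at 200 to under 250 and 6.50% at 250 to under 300 reads per kb. At 300 reads per kb and over, 18 of 403 domains (4.47%, interval 2.84-6.95%) were without listed H3K9ac. These intervals are over domains of single pooled libraries, which are not replicates, and differences between the classes were not tested.

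**Figure D2:**
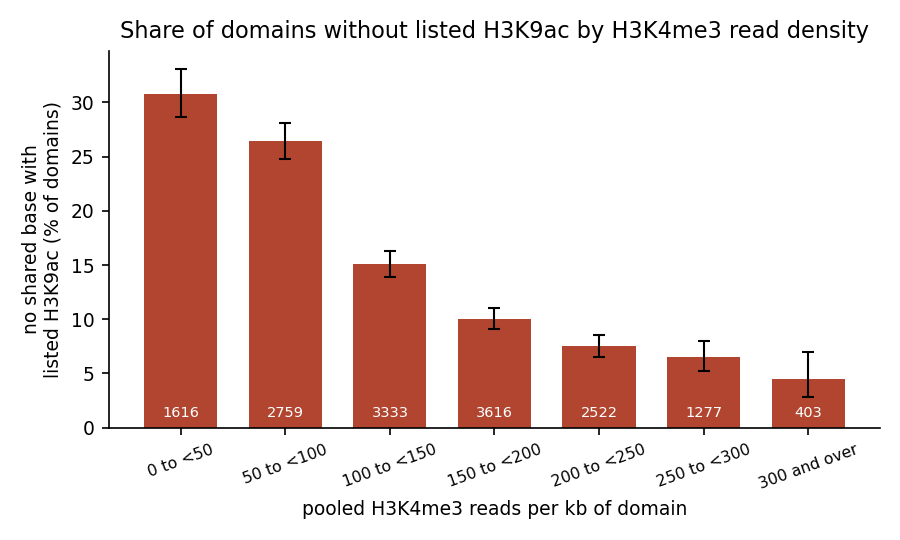
Share of domains that shared no base with listed H3K9ac (y axis, %) among all domains within the limits, by pooled H3K4me3 reads per kb (x axis). Bars carry 95% Wilson intervals and the number of domains in each class. The share fell from 30.8% in the lowest class to 4.47% in the highest.

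Widths differed little. The domains without listed H3K9ac had a median width of 1599 bp (quartiles 999 and 2199 bp), and the H3K9ac-overlapping domains one of 1799 bp (quartiles 1199 and 2399 bp). The tables place domains on windows of 200 bp, so that the medians are 1 window apart. A width under 1000 bp was found in 635 domains without listed H3K9ac (26.7%, interval 24.9-28.5%) and in 2016 H3K9ac-overlapping domains (15.3%, interval 14.7-16.0%). A wide domain meets another table more easily than a narrow one, and both sets were therefore also compared at equal width.

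At equal width, H3K4me3 reads per kb were lower without listed H3K9ac in 18 of the 18 width classes with at least 20 domains in each set. IgG reads per kb were lower in 6 of these classes. The narrowest classes differed least. At a width of 399 bp, the medians were 72.5 H3K4me3 reads per kb in 49 domains without listed H3K9ac and 80 in 87 H3K9ac-overlapping domains. At 999 bp, they were 96.5 in 264 domains without listed H3K9ac and 213 in 1059 H3K9ac-overlapping domains, the widest gap of the 18 classes on the scale of log2 ratios (-1.07). At 1799 bp, they were 119 in 226 domains and 166 in 1227 H3K9ac-overlapping domains, and at 3399 bp 92.6 in 35 domains and 118 in 305 H3K9ac-overlapping domains.

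The profile over width thus differed between the sets. Without listed H3K9ac, the density of H3K4me3 reads was nearly flat from 999 to 3599 bp, with medians between 92.6 and 119 reads per kb. In H3K9ac-overlapping domains it fell from 213 reads per kb at 999 bp to 121 at 3599 bp. Just outside this range, the medians without listed H3K9ac were lower, 75 at 799 bp and 77.9 at 3799 bp (20 domains). In H3K9ac-overlapping domains they were 136 and 110 at these widths. Across domains, Spearman's rho of width and H3K4me3 reads per kb was 0.03 (n = 2382) without listed H3K9ac and -0.23 (n = 13144) in H3K9ac-overlapping domains. These correlations are descriptions across domains that share the same pooled libraries.

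**Figure D3:**
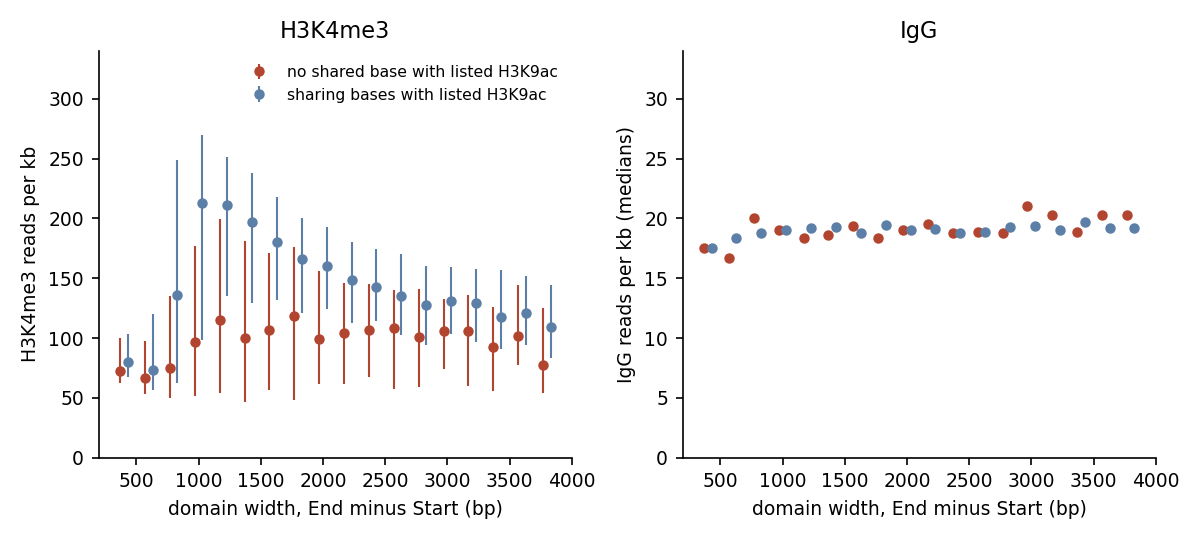
Left, median H3K4me3 reads per kb (y axis) with quartiles (vertical lines) by domain width (x axis, bp). Right, median IgG reads per kb. Red points are domains sharing no base with listed H3K9ac and blue points domains sharing bases with it, shifted sideways for clarity. The red H3K4me3 medians lie under the blue ones in 18 of the 18 classes, while IgG medians lie between 16.7 and 21.0 reads per kb in both sets.

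The domains were found on each of the 12 chromosomes and in 375 of the 388 bins with at least 10 listed H3K4me3 domains. Their share of the domains within the limits ran from 13.2% on chromosome 2 (83 of 630 domains, interval 10.8-16.0%) to 19.2% on chromosome 7 (222 of 1158, interval 17.0-21.5%). Chromosome 1 held the largest number, 311 domains, at a share of 13.5% (interval 12.2-14.9%). Chromosome 4 had 237 domains (17.3%), chromosome 11 had 147 (17.1%) and chromosome 6 had 250 (16.8%). The median H3K4me3 reads per kb were lower without listed H3K9ac on 12 of 12 chromosomes. The difference of the median log2 ratios ran from -1.10 on chromosome 2, with medians of 3.79 and 8.13 for the read ratio, to -0.47 on chromosome 6, with medians of 5.73 and 7.94.

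The share also varied with the density of domains along the chromosome. In bins with 10 to 19 listed H3K4me3 domains, 288 of 1604 domains (18.0%, interval 16.2-19.9%) had no listed H3K9ac, and in bins with 20 to 39 domains 406 of 2203 (18.4%, interval 16.9-20.1%). In bins with 100 domains or more, 259 of 2244 (11.5%, interval 10.3-12.9%) had none. H3K4me3 reads per kb of the domains without listed H3K9ac had a median of 81.6 in the sparsest of these bins and 109 in the densest. In H3K9ac-overlapping domains the medians were 161 in the sparsest and 159 in the densest bins. Domains without listed H3K9ac in the sparse bins were also narrower, with a median width of 1199 bp in bins with 10 to 19 domains and 1799 bp in bins with 100 or more. The H3K9ac-overlapping domains were narrower there too, with median widths of 1599 bp and 1799 bp in the same bins.

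The domains lay apart from listed H3K9ac, mostly by several kb. That they shared no base with it was set by the rule. The median distance to the nearest listed H3K9ac domain was 6200 bp, with quartiles of 3000 and 12000 bp. It varied with the density of domains, from 14400 bp in bins with 10 to 19 listed H3K4me3 domains to 4200 bp in bins with 100 or more. Only 6 domains (0.25%) lay within 500 bp and 132 (5.54%) within 1000 bp, while 1021 (42.9%, interval 40.9-44.9%) lay within 5000 bp. A total of 304 domains (12.8%) lay more than 20000 bp away. Listed H3K9ac stood within 5000 bp on both sides in 165 domains (6.93%, interval 5.98-8.02%).

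H3K4me3 did not vary much with this distance. The median was 91.8 reads per kb in the 81 domains under 1000 bp from listed H3K9ac, 98.9 in the 634 domains at 2000 to under 5000 bp, 103 in the 625 domains at 5000 to under 10000 bp and 92.3 in the 456 domains at 10000 to under 20000 bp. In the 65 domains at 50000 bp or more it was 73.3, and these lay in bins with a median of 13 listed H3K4me3 domains. Spearman's rho of distance and H3K4me3 reads per kb was -0.02 across the 2382 domains.

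**Figure D4:**
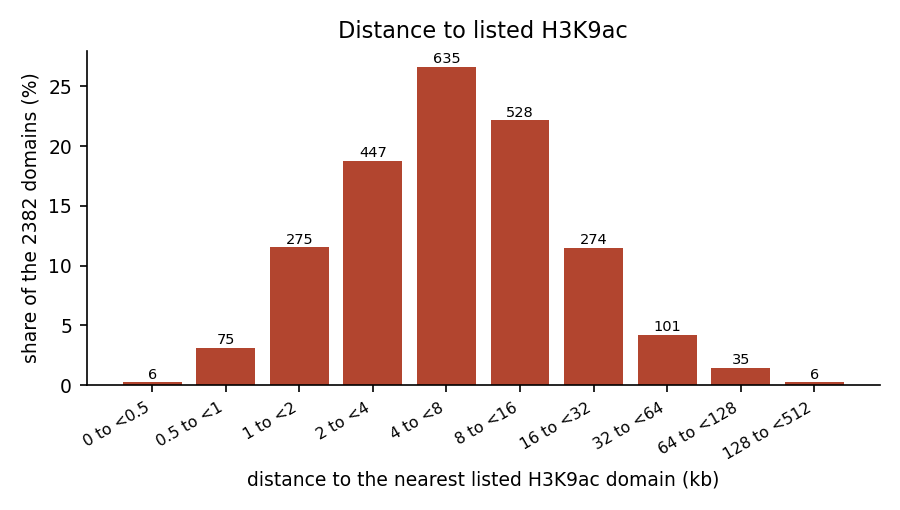
Share of the 2382 domains (y axis, %) by distance to the nearest listed H3K9ac domain (x axis, kb, classes that double in size from 0.5 to 128 kb). Numbers above the bars are domains. The class from 4 to under 8 kb was the largest, with 635 domains.

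Between consecutive listed H3K9ac domains lay 17443 gaps, of which 1761 (10.1%) held at least 1 of these H3K4me3 domains. A single one was found in 1310 gaps, a pair in 335 and 3 or more in 116, with at most 9 in a gap. Gaps with such a domain had a median length of 24200 bp (quartiles 14400 and 45600 bp), and gaps without one a median of 6400 bp (quartiles 2000 and 20600 bp). Of the gaps of at least 20000 bp, 21.0% held one. A gap needs room for a domain, so that longer gaps follow in part from the rule.

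The H3K9ac domains next to them had about the same ratio of 2 h JA to ctrl reads as those that shared bases with H3K9ac-overlapping domains. The 1949 H3K9ac domains that were nearest to at least 1 of the 2382 domains had a median of 1.04 reads in 2 h JA per read in ctrl (quartiles 0.987 and 1.11), and the 10327 that shared bases with H3K9ac-overlapping domains also one of 1.04 (quartiles 0.988 and 1.10). These are ratios of pooled reads without scaling for depth. Their median widths were 3999 bp and 4799 bp, and their median ctrl reads per kb were 92.0 and 107. These sets were not made separate, so that an H3K9ac domain could count in both. All 17455 listed H3K9ac domains had a median ratio of 1.05 (quartiles 1 and 1.13), and the list itself was called on this contrast.

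Some of the domains followed each other without another listed H3K4me3 domain between them. Of the 2382, 1225 stood alone, 702 came in pairs, 279 in runs of 3 and 176 in runs of 4 to 9. The nearest listed H3K4me3 domain was another of the 2382 in 839 of them (35.2%), and one of the 2382 in 1277 of the 13144 H3K9ac-overlapping domains (9.72%). For 1438 of the 2382 it shared bases with listed H3K9ac, and for the other 105 it shared none but missed the limits on ratio, width or bin. Neighbors in a gap share the absence of listed H3K9ac by construction. Domains in longer runs were not weaker, with medians of 98 H3K4me3 reads per kb for those alone and 100 for those in runs of 4 to 9.

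Of the 2 runs of 9, the one with more reads lay on chromosome 6 from 438000 to 520199 (SLM_r2.0 assembly, positions as in the deposited tables). It lay in a stretch of 111400 bp without listed H3K9ac, 15400 bp from the H3K9ac domain on one side and 13800 bp from that on the other. Its domains ranged from 399 to 2399 bp in width, and held 2344 H3K4me3 and 230 IgG reads together. Of the 9, 8 had strong H3K4me3, with read ratios from 6.83 to 27.5. The strongest, from 443800 to 444999, held 357 H3K4me3 and 13 IgG reads (ratio 27.5, Clopper-Pearson interval 15.9-52.1). Next to it, the domain from 441200 to 442999 held 338 H3K4me3 and 18 IgG reads (ratio 18.8, interval 11.7-32.1).

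The exception was the domain from 456800 to 458599 within the same run. It held 64 H3K4me3 and 43 IgG reads, a ratio of 1.49 with an interval of 0.996-2.24. This interval includes 1 and also 1.59, the ratio of uniquely aligned H3K4me3 to IgG reads. The flanking H3K9ac domains held 258 reads in 2 h JA and 253 in ctrl on the left, and 67 in 2 h JA and 57 in ctrl on the right. Counting intervals of single domains cover counting error only, and the reads carry no molecular identifiers.

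**Figure D5:**
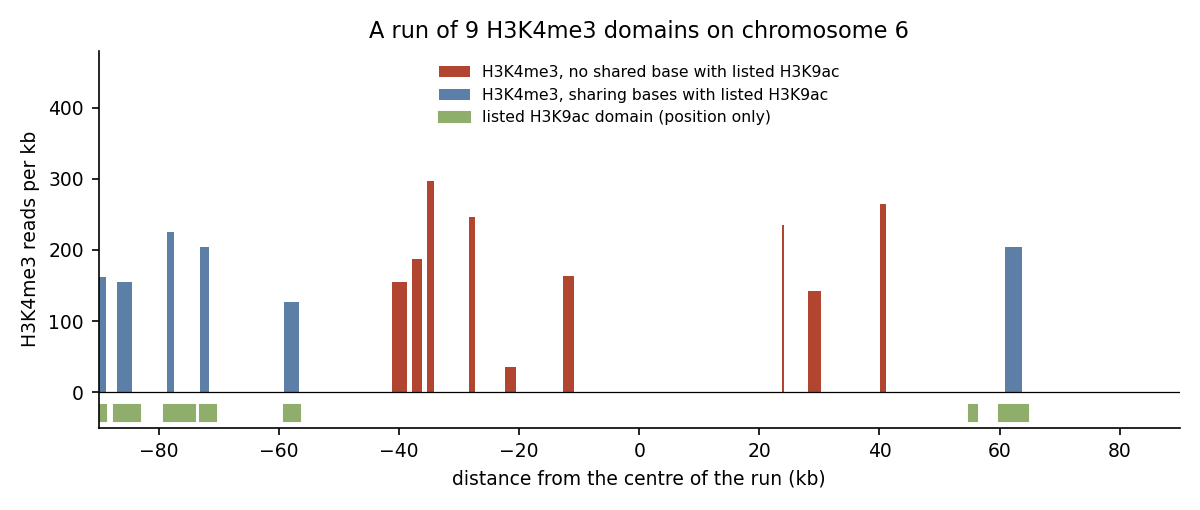
Map of the run of 9 domains on chromosome 6, with the distance from its centre (x axis, kb) and pooled H3K4me3 reads per kb (y axis, height of the bars, width to scale). Red bars are H3K4me3 domains sharing no base with listed H3K9ac, blue bars those sharing bases with it, and green boxes the listed H3K9ac domains, drawn by position only. In the run, 8 bars stand between 143 and 298 reads per kb and 1 at 35.6.

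The other long runs were more mixed. A run of 9 domains on chromosome 7 spanned 209 kb from 58597200 to 58806599, with 3 listed H3K9ac domains in the spaces between its members. Its read ratios ran from 1.37 to 17.7, with a median of 4.52. The strongest of its domains in reads, from 58633800 to 58635599, held 500 H3K4me3 and 32 IgG reads (ratio 15.6, interval 10.9-23.1), and the weakest, from 58630800 to 58632999 on its left, held 74 H3K4me3 and 54 IgG reads (ratio 1.37, interval 0.952-1.98). A run of 8 domains on chromosome 4 from 63689600 to 63754199 spanned 64.6 kb with 2 listed H3K9ac domains in its spaces, and its ratios ran from 1.91 to 15.9. Each of the 3 runs thus held domains with ratios under 2 and domains with ratios over 15.

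The densest H3K4me3 without listed H3K9ac was found on chromosome 11 from 4887400 to 4889799. It was 2399 bp wide and held 956 H3K4me3 and 35 IgG reads, which is 398 H3K4me3 reads per kb and a ratio of 27.3 (interval 19.5-39.5). Listed H3K9ac lay 6400 bp away on one side and 11000 bp on the other. It was followed by a domain on chromosome 5 from 66414800 to 66416799 with 753 H3K4me3 and 39 IgG reads (ratio 19.3, interval 14.0-27.4), 8400 bp from listed H3K9ac. On chromosome 4, the domain from 56249000 to 56249799 (799 bp) had 298 H3K4me3 and 20 IgG reads (ratio 14.9, interval 9.48-24.7). These values lie near the top of the H3K9ac-overlapping domains, whose highest was 418 reads per kb.

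Such strong domains were found on each chromosome. The densest one per chromosome had between 294 and 398 H3K4me3 reads per kb and ratios between 9.44 and 30.4. The lowest of these ratios was that of a domain on chromosome 12 from 67882800 to 67883999, with 368 H3K4me3 and 39 IgG reads. That on chromosome 9, from 5465800 to 5468399, held 767 H3K4me3 and 47 IgG reads (ratio 16.3, interval 12.2-22.4) at 21200 bp from listed H3K9ac. That on chromosome 10, from 3402400 to 3403799, held 438 H3K4me3 and 23 IgG reads (ratio 19.0, interval 12.5-30.4) at only 1800 bp.

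Among domains with at least 100 reads in both libraries together and more than 3 IgG reads, the highest ratios were 30.8 on chromosome 1 from 1715600 to 1716999 (400 H3K4me3 and 13 IgG reads, interval 17.8-58.3), 30.4 on chromosome 1 from 9879000 to 9879599 (213 and 7 reads, interval 14.5-76.6) and 27.5 on chromosome 11 from 2888000 to 2888799 (220 and 8 reads, interval 13.7-64.5). Their intervals overlap, and their order cannot be told from counting error. The 20 domains at the widest width, 3799 bp, had a median ratio of 3.95. The 3 of them with the most reads, which is how they were picked, had ratios of 6.95 on chromosome 9 from 4657000, 7.80 on chromosome 1 from 91716800 and 5.57 on chromosome 1 from 81383600, with 605, 554 and 496 H3K4me3 reads.

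Domains typical of the set were modest. On chromosome 6 from 49653400 to 49654999, a domain of the median width held 184 H3K4me3 and 35 IgG reads, a ratio of 5.26 (interval 3.65-7.78), with listed H3K9ac 5800 bp away. On chromosome 5 from 4488600 to 4490199, 167 H3K4me3 and 32 IgG reads gave a ratio of 5.22 (interval 3.56-7.88), with listed H3K9ac 5600 bp away on one side and 6200 bp on the other. On chromosome 3 from 55909600 to 55911199, 125 H3K4me3 and 24 IgG reads gave a ratio of 5.21 (interval 3.35-8.43), with listed H3K9ac 9200 bp away.

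The domains picked as farthest from listed H3K9ac had few reads, and so did some of those picked as nearest. The farthest from listed H3K9ac, 315000 bp away on chromosome 9 from 42055800 to 42056399, held 29 H3K4me3 and 6 IgG reads (ratio 4.83, interval 1.97-14.2). The next, on chromosome 9 from 46404400 to 46405999, held 50 H3K4me3 and 34 IgG reads (ratio 1.47, interval 0.932-2.34). It was followed by a domain on chromosome 5 from 19217600 to 19219799 with 68 H3K4me3 and 30 IgG reads (ratio 2.27, interval 1.45-3.61). At the other end, a domain on chromosome 9 from 5576200 to 5578799 touched a listed H3K9ac domain with 0 bp between them, and it held 434 H3K4me3 and 51 IgG reads (ratio 8.51, interval 6.36-11.6). On chromosome 2 from 55546000 to 55547199, 200 bp from listed H3K9ac, a domain held 47 H3K4me3 and 23 IgG reads (ratio 2.04, interval 1.22-3.53).

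The 3 domains with the most IgG reads per kb had low ratios, which follows in part from this choice, since IgG is the denominator. On chromosome 1 from 5419600 to 5422799, 444 H3K4me3 and 359 IgG reads gave 139 H3K4me3 and 112 IgG reads per kb and a ratio of 1.24 (interval 1.07-1.43). This interval lies under 1.59, the ratio of uniquely aligned H3K4me3 to IgG reads. On chromosome 3 from 3654000 to 3656999, 442 H3K4me3 and 266 IgG reads gave a ratio of 1.66 (interval 1.42-1.94). The third was the narrowest of the 2382, 199 bp on chromosome 6 from 1500400, and its 80 IgG reads per kb rest on 21 H3K4me3 and 16 IgG reads (ratio 1.31, interval 0.653-2.69).

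At the limits of the rule, the values just inside and just outside were close. The lowest ratio inside, 1.22, was shared by 5 domains, of which those with the most reads lay on chromosome 8 from 63787400 (77 H3K4me3 and 63 IgG reads) and on chromosome 12 from 59714000 (66 and 54 reads). Just outside lay 1.195 on chromosome 8 from 1195200 (49 and 41 reads) and 1.19 on chromosome 6 from 35453400 (44 and 37 reads). The intervals of these 4 domains include 1 and also 1.59, the ratio of uniquely aligned H3K4me3 to IgG reads. At the width limit, 20 domains of 3799 bp were inside and 17 of 3999 bp otherwise met the rule. At the bin limit, 58 domains lay in bins with 10 listed domains, and 30 in bins with 9 otherwise met the rule.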

How the data were processed

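PHILO ChIP-seq of 12 tomato libraries was examined through 2 deposited domain tables, and the Arabidopsis and hemp libraries were not used here. Alignment by the authors used Bowtie2 2.4.1 and the SLM_r2.0 assembly. The 3 replicates of each group were merged, and epic2 (named SICER 0.0.52 in the submitters' processing notes) compared H3K4me3 with IgG, and 2 h JA with ctrl for H3K9ac. Window, gap and duplicate settings are not given in the sources used here. The authors deposited raw counts of reads for every domain. The FDR and p-value of every domain are also as the authors deposited them. The log2 fold change deposited for H3K4me3 is the log2 ratio of both counts plus 0.74, although the H3K4me3 libraries had more uniquely aligned reads than IgG (by 0.67 on the log2 scale). The deposited score repeats it and was not used.

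The read ratio is H3K4me3 over IgG reads, unscaled. Width is end minus start, and reads per kb use the bases covered. Distances count the bases between domains. Starts are multiples of 200 and count from 0. Intervals are 95% Wilson (shares), binomial (medians) and Clopper-Pearson (ratios of reads). Totals of uniquely aligned reads came from the study's list of libraries, since the tables hold no library depth. At most 3 IgG reads were taken as the floor.

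The members, the lists and the rule for named domains were chosen with earlier results of these data known. Named were the highest ratios, the densest, widest, nearest and farthest domains, the longest runs, the densest per chromosome, those with most IgG, those at the median and those at the ratio limit. No gene annotation or sequence of this assembly was used. The functions were tested on simulated intervals. Software was bedtools 2.31.1, matplotlib 3.10.9, SciPy 1.17.1, NumPy 2.4.6, pandas 2.3.3 and Python 3.11.15.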

Additional observations from a re-analysis of the deposited data

How the results depend on the processing

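Which domains lack listed H3K9ac depended most on the H3K9ac list. When only H3K9ac domains with an FDR of at most 0.001 counted, 5322 domains lacked them (34.3% of those within the limits), the median distance to listed H3K9ac was 9000 bp, the difference of median log2 ratios was -0.33, and the median H3K4me3 reads per kb were 0.797 times those of H3K9ac-overlapping domains, against 0.612 times with the full list. With H3K9ac within 1 kb counted as shared, the share was 14.5%. A read ratio of at least 2 gave a share of 14.2% and a difference of -0.50, and no minimum ratio 16.4% and -0.81. At least 20 domains per bin gave a median distance of 5600 bp. With at least 100 reads per domain in both libraries together, the share was 12.8%, the difference -0.39 and the difference of median widths 0 bp. The median difference over width classes was -0.51, and over single chromosomes the difference ran from -1.10 to -0.47. In 30 other recomputed values of the main results (number of domains, share, distance, difference of log2 ratios), the value stayed within 1.5 times for counts and within the 95% interval otherwise. For the difference of log2 ratios, that interval covers only the median without listed H3K9ac. The median of the H3K9ac-overlapping domains was held fixed. The difference in log2 ratio kept its sign under each alternative.

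Depth limits the weak domains, since 644 of the 2382 held under 100 reads in both libraries together. The H3K9ac-overlapping domains held more reads, with a lower quartile of 186 H3K4me3 reads against 68 without listed H3K9ac. After division by the ratio of uniquely aligned reads, 156 domains without listed H3K9ac (6.55%) and 314 H3K9ac-overlapping domains (2.39%) had a ratio under 1. No paired analysis was possible because replicates were merged before deposit, and for the same reason no replicate was left out.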

Other observations

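Among the 2382 domains without listed H3K9ac, 7 had no more than 3 IgG reads (0.294%, Wilson interval 0.142-0.605%), and among the 13144 H3K9ac-overlapping domains 18 (0.137%, interval 0.0866-0.216%). The 7 were looked at after their values were seen. They include the highest read ratio of the set, 55 on chromosome 9 from 51354800 to 51355199, which rests on 55 H3K4me3 reads and 1 IgG read (Clopper-Pearson interval 9.47-2211). A domain on chromosome 9 from 66574800 to 66575999 held 103 H3K4me3 and 2 IgG reads (ratio 51.5, interval 13.9-431), with listed H3K9ac 10600 bp away on one side and 22000 bp on the other. The IgG density of this domain, 1.67 reads per kb, was the lowest of the 2382. A domain on chromosome 1 from 77004200 to 77004799 held 71 H3K4me3 and 2 IgG reads (ratio 35.5, interval 9.47-299). The other 4 domains had ratios between 10 and 16.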
